A study of Mus musculus with 6 samples.

Results

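Smooth muscle contractile genes are the genes whose proteins build, anchor and switch the actin and myosin machinery of the gut wall and of vessel walls. The list holds 34 genes chosen by name, from actins and the myosin motor to anchoring proteins, ion channels, muscarinic receptors and the regulator Myocd, and all 34 were found among the 54532 genes of the deposited table. The genes were chosen with earlier results of these data known, so the list is not independent of them. They were followed in 6 tumors of the AOM+DSS-L experiment, 3 from Tmem173fl/fl and 3 from Tmem173iΔmye mice. AOM is the carcinogen azoxymethane and DSS the colitis-inducing dextran sodium sulfate, and both groups went through 3 cycles of AOM/DSS. Tmem173 encodes STING, a sensor adaptor of cytosolic DNA, and loxP sites flank it in both groups. Tamoxifen (TAM) was injected in both groups once the 3 cycles were over, and the mice were sacrificed a week after the injections. Only the Tmem173iΔmye mice, labelled CRE, carry Lyz2-Creert2, a TAM-inducible Cre driven by the Lyz2 promoter, which is active in myeloid cells. The Tmem173fl/fl mice are labelled WT, although their alleles are floxed and they received TAM. The control group therefore has no Cre, and an effect of active Cre cannot be told apart from loss of STING. RNA with poly(A) tails was taken from whole tumor tissue, so every value is a sum over tumor epithelium, stroma and any muscle sampled with the tumor. The age at sampling was not stated in the sources used here. The tumors are numbered 1 to 3 in each group as labelled. No source states that they came from separate litters or days, so the p-values measure only the spread between these samples.

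In smooth muscle, myosin pulls on actin filaments once the light chain of the motor is phosphorylated. Thin-filament proteins such as tropomyosin, calponin and caldesmon tune that step. Dense bodies and a network of desmin filaments hand the force to neighbouring cells, and calcium and potassium channels set the tone under muscarinic input. The muscularis propria and muscularis mucosae of the colon hold most of this machinery, but several of its genes, such as Tpm1, Flna, Cald1 and Pdlim7, are also used by epithelial cells, fibroblasts and other cell types.

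The actins of the list, Acta2 and Actg2, are close relatives in sequence, which bears on how far reads can be told apart. The coding sequences of Acta2 (1131 bases) and Actg2 (1128 bases) were 84.2% identical when aligned, with 952 identical bases, 176 different bases and 3 bases left unaligned. The longest run they share was 29 bases. The first 60 coding bases are shown for each gene because the actins differ there in length as well as in sequence. They come from GRCm38 with the GENCODE M21 annotation and lie in exon 2 of both genes, at chr19:34252494-34252553 (minus strand) for Acta2 and at chr6:83527382-83527441 (minus strand) for Actg2. Capitals mark the bases that differ from the other actin or align to none.
Acta2: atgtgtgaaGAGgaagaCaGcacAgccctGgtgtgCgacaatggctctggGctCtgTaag
Actg2: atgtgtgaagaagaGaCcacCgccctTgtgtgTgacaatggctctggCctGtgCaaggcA
Capitals made up 11 of the 60 bases in Acta2 and 9 of the 60 in Actg2, so differences within this pair are frequent over a short stretch. Actins outside the list come closer to Acta2 by some measures. The coding sequence of Acta1 was 85.4% identical to it, and the longest shared run was 47 bases for Actb. For Actg1, with an aligned coding sequence of 459 bases, it was 56 bases.

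Serum response factor and its partner myocardin drive many contractile genes through the CArG box, a run of CC, 6 bases that are each A or T, and GG. Promoter windows from RefSeq (GRCm38.p6, 250 bases before to 50 after a start site) were available for 29 of the 34 genes, and Actg2, Myh11, Tagln, Nexn and Myocd were not matched. Both strands were searched. An exact CArG box was found for Ldb3 and Myl9, which is 2 of 29 genes (6.9%), against 1.81% of all 27025 genes with a window. Allowing 1 of the 6 core bases to be C or G gave 8 genes (Acta2, Flnc, Hspb6, Jph2, Ldb3, Myl9, Pdlim3 and Synm, 27.6%), a count that includes the exact boxes, against 11.3% of all genes. The windows below are those of both genes with an exact box, of Acta2, the textbook CArG target, and of Jph2 and Flnc, which had an unadjusted p-value under 0.05 in the comparison of the groups. Capitals mark the box, and each window reads 5′ to 3′ on the strand of its gene. The positions are chr2:156775278-156775337 (plus strand) for Myl9, chr14:34588682-34588741 (minus strand) for Ldb3, chr19:34255423-34255482 and chr19:34255374-34255432 (minus strand) for the distal and proximal boxes of Acta2, chr2:163398032-163398091 (minus strand) for Jph2 and chr6:29432965-29433024 (plus strand) for Flnc.
Myl9: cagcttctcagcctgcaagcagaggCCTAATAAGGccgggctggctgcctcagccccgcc
Ldb3: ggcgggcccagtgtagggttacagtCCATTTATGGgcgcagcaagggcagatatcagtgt
Acta2 distal: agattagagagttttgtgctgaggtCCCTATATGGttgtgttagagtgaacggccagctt
Acta2 proximal: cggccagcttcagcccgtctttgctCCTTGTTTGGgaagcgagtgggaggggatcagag
Jph2: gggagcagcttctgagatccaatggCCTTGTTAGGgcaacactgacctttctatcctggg
Flnc: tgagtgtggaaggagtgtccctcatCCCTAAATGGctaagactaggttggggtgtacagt
The boxes of Myl9 and Ldb3 begin 161 and 35 bases before the start site, those of Acta2 84 and 34 bases before it. The letters describe the windows alone.

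Total counts per tumor ranged from 15329810 to 16533732, of which the contractile genes took 0.169% to 0.218%. Levels are given as FPKM (fragments scaled by gene length and library size) as deposited, which allows genes of different length to be compared. The targeted gene did not tell the groups apart in whole tumor RNA. Tmem173 had 48.6, 84.5 and 44.2 FPKM in Tmem173fl/fl tumors 1, 2 and 3 and 62.7, 61.0 and 53.7 FPKM in Tmem173iΔmye tumors 1, 2 and 3, so the groups overlapped. Reads of Y-linked genes were present in Tmem173fl/fl tumor 1 (3547 counts) and Tmem173iΔmye tumors 1 and 2 (2875 and 2655 counts), and at most 2 such counts were found in each of the other tumors. The groups are therefore unequal in this respect. Smooth muscle markers were present in every tumor, with Acta2, Actg2, Myh11, Cnn1 and Des all above 4 FPKM, but Tagln and Lmod1, other defining genes, did not exceed 1.24 FPKM and Myocd did not exceed 0.223 FPKM.

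Across the whole list, contractile genes tended to be lower in Tmem173iΔmye tumors, mostly in tumors 1 and 2 of that group. Of the genes tested, desmin (Des) and Pgm5 were lowest relative to Tmem173fl/fl tumors, at 0.495-fold and 0.486-fold, while the abundant Acta2, Tpm1 and Myl9 were near 1. Fold changes are log2 values of Tmem173iΔmye over Tmem173fl/fl from edgeR's quasi-likelihood test, each with its standard error (SE). Of the 34 genes, 28 reached the minimum mean level of 0.5 FPKM and entered the test of 16426 genes. None of the 28 had an adjusted p-value under 0.05 from edgeR with Benjamini-Hochberg adjustment, and the smallest was 0.742, where the share over all genes tested was 0.0%. With a log2 fold change of 1 or more in either direction and an unadjusted p-value under 0.05 as the threshold, 1 gene (Des) was lower and 0 were higher, against 0.864% lower and 1.26% higher over all genes tested. By the unadjusted p-value alone, 4 genes were lower under 0.05 (Ppp1r12b, Des, Flnc and Jph2, 14.3%) and 0 were higher. Over all genes tested, 2.9% were lower and 3.23% higher by that measure. The log2 fold change was below 0 for 21 of 28 genes (75%), against 50.6% of all genes tested. Its median was -0.32, against -0.0042 over all genes tested. It was -0.5 or below for 10 of 28 genes (35.7%), against 8.72% of all genes tested. For 11 of the 28 genes the SE was at least as large as the change. Without Tmem173iΔmye tumor 3, 8 of the 28 were lower at an unadjusted p-value under 0.05 from edgeR (2.11% of all genes tested). Of these, 4 met the fold threshold as well (Cnn1, Des, Synpo2 and Pgm5, with 0.877% of all genes tested). Without Tmem173iΔmye tumor 1, without tumor 2 or without Tmem173fl/fl tumor 3, 0 of the 28 were lower at an unadjusted p-value under 0.05. Of all genes tested, 1.69%, 2.08% and 1.47% were. Because RNA came from whole tumors, fewer muscle cells and less contractile RNA per cell cannot be told apart in any of these values.

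**Figure D1:**
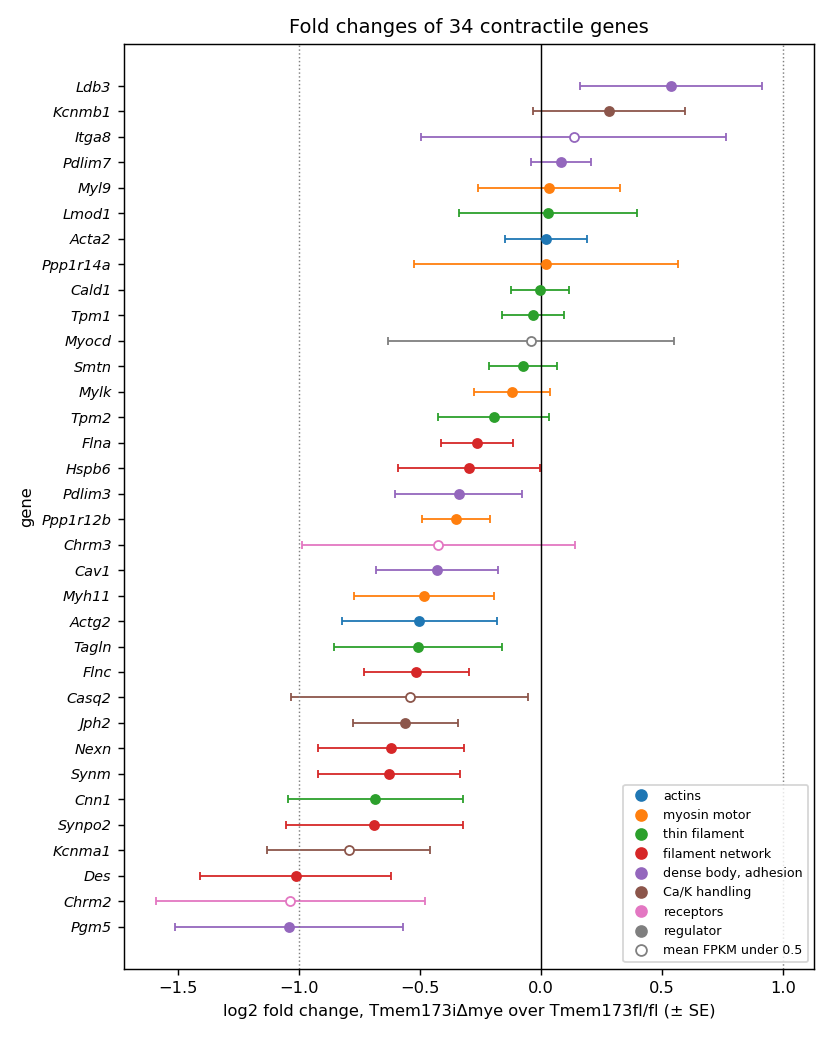
Log2 fold change (x axis, Tmem173iΔmye over Tmem173fl/fl, 3 tumors each) of the 34 contractile genes (y axis, sorted, coloured by role), with points for the edgeR estimate and bars for ± SE; dotted lines mark -1 and 1, and open points mark the 6 genes with a mean FPKM under 0.5. Most points lie left of 0, from Pgm5 at -1.04 to Ldb3 at 0.54.

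The actins were both among the 5 genes of highest mean level but differed from each other. Acta2, smooth muscle alpha-actin, which vessel walls and activated fibroblasts also make, had 73.1, 50.3 and 69.9 FPKM in Tmem173fl/fl tumors and 63.5, 60.9 and 72.1 FPKM in Tmem173iΔmye tumors. The groups overlapped, the lowest value was that of a Tmem173fl/fl tumor, and the log2 fold change was 0.02 (SE 0.17), with 2 SE on each side reaching from -0.32 to 0.36. Actg2, the enteric gamma-actin typical of visceral muscle, had 44.0, 27.8 and 41.6 FPKM in Tmem173fl/fl and 25.1, 16.2 and 38.9 FPKM in Tmem173iΔmye tumors. Tmem173iΔmye tumors 1 and 2 were the lowest of the 6, and tumor 3 lay within the range of the Tmem173fl/fl tumors. The log2 fold change of Actg2 was -0.50 (SE 0.32, unadjusted p = 0.156 and adjusted p = 0.753 from edgeR). Taken against Acta2 in the same tumor, Actg2 stood at 60.2%, 55.2% and 59.6% of the Acta2 FPKM in Tmem173fl/fl tumors. It stood at 39.5%, 26.7% and 54.0% in Tmem173iΔmye tumors, and these percentages did not overlap between the groups. By FPKM alone, the groups overlapped for Actg2, Des and Cnn1. Of the 6 genes set against Acta2 as a ratio, Actg2, Des and Cnn1 did not overlap, whereas Myh11, Tagln and Myl9 did. The ratio was taken for these 6 genes alone, so no share over all genes tested stands beside that count.

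Among the genes of the myosin motor, the heavy chain was lower in a pair of tumors and the light chain was not. Myh11, the smooth muscle myosin heavy chain, had 11.9, 8.86 and 9.13 FPKM in Tmem173fl/fl and 5.30, 5.39 and 10.7 FPKM in Tmem173iΔmye tumors. Tumors 1 and 2 of the Tmem173iΔmye group lay below all others and tumor 3 was the second highest of the 6. The log2 fold change of Myh11 was -0.48 (SE 0.29), with an adjusted p of 0.747 from edgeR. Myl9, the regulatory light chain, had 42.3, 18.1 and 34.1 FPKM in Tmem173fl/fl and 31.7, 28.5 and 36.9 FPKM in Tmem173iΔmye tumors. Its lowest value came from Tmem173fl/fl tumor 2, and the log2 fold change was 0.03 (SE 0.30). Mylk, the kinase that phosphorylates this light chain, ranged from 4.65 to 6.75 FPKM with a log2 fold change of -0.12 (SE 0.16).

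The genes of myosin phosphatase, which takes the phosphate off again, behaved unlike each other. Ppp1r12b, a targeting subunit of the phosphatase, had 1.98, 1.90 and 2.13 FPKM in Tmem173fl/fl and 1.48, 1.58 and 1.65 FPKM in Tmem173iΔmye tumors. All 3 Tmem173iΔmye tumors lay below all 3 Tmem173fl/fl tumors, and the log2 fold change was -0.35 (SE 0.14, unadjusted p = 0.038 and adjusted p = 0.742 from edgeR). Ppp1r14a, the phosphatase inhibitor CPI-17, had 5.39, 1.17 and 5.63 FPKM in Tmem173fl/fl and 4.51, 5.03 and 2.87 FPKM in Tmem173iΔmye tumors. Its highest tumor had 4.84 times the level of its lowest, both of them Tmem173fl/fl tumors, and the log2 fold change was 0.02 (SE 0.55), on 24 to 129 counts per tumor.

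**Figure D2:**
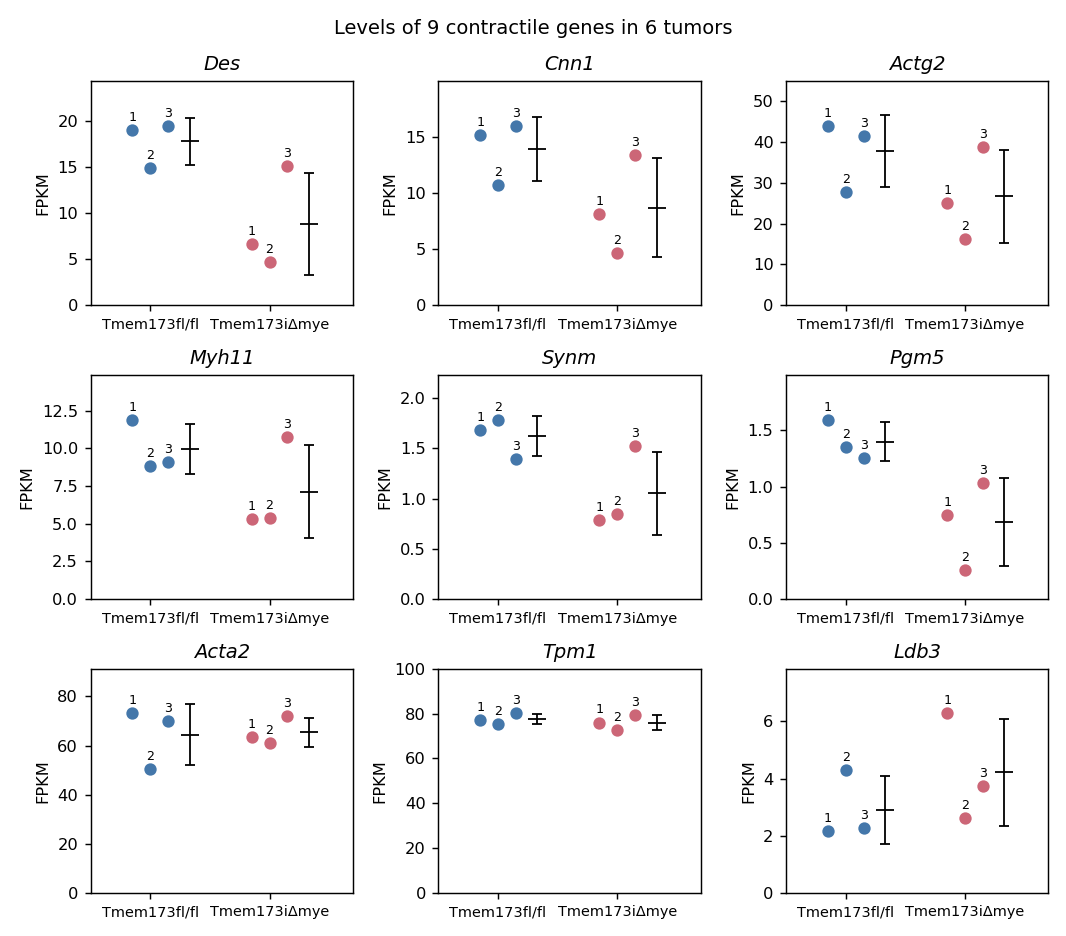
Levels of 9 contractile genes (y axis, FPKM, from 0) in each tumor of the Tmem173fl/fl and Tmem173iΔmye groups (x axis); points are tumors numbered as labelled and the bars beside them the mean ± SD of 3 tumors. In Des, Cnn1, Actg2, Myh11, Synm and Pgm5 the Tmem173iΔmye tumors 1 and 2 are the lowest points, whereas Acta2 and Tpm1 are level across both groups and Ldb3 is highest in Tmem173iΔmye tumor 1, at 6.28 FPKM.

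The thin-filament proteins held both the steadiest genes of the list and 1 of the most variable ones. Cnn1 (calponin), which binds actin and slows the myosin motor, had 15.1, 10.7 and 16.0 FPKM in Tmem173fl/fl and 8.10, 4.61 and 13.3 FPKM in Tmem173iΔmye tumors. Its lowest values were again those of Tmem173iΔmye tumors 1 and 2, and the log2 fold change was -0.68 (SE 0.36, unadjusted p = 0.096 and adjusted p = 0.742 from edgeR). As a share of Acta2 FPKM, Cnn1 stood at 20.7% to 22.8% in Tmem173fl/fl tumors and at 12.8%, 7.58% and 18.5% in Tmem173iΔmye tumors. By FPKM alone the groups of Cnn1 overlapped, and the ratio was not taken for all genes tested.

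Tpm1, a tropomyosin and the most abundant gene of the list, had 77.1, 75.5 and 80.1 FPKM in Tmem173fl/fl and 76.0, 72.6 and 79.2 FPKM in Tmem173iΔmye tumors. The 6 tumors lay within 1.10-fold of each other, and the log2 fold change was -0.03 (SE 0.13). Tpm2, the tropomyosin more typical of muscle, ranged from 11.7 to 20.3 FPKM with a log2 fold change of -0.20 (SE 0.23). Cald1 (caldesmon), which restrains the action of myosin on actin at rest, ranged from 8.02 to 9.75 FPKM. Its log2 fold change was -0.0036 (SE 0.12), with 2 SE on each side reaching from -0.24 to 0.24. Smtn (smoothelin) and Lmod1 (leiomodin, which nucleates actin filaments) had log2 fold changes of -0.08 (SE 0.14) and 0.03 (SE 0.37).

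Tagln (transgelin, SM22), usually among the strongest smooth muscle genes, was counted at a low level. It had 37, 37 and 33 counts in Tmem173fl/fl and 18, 28 and 30 counts in Tmem173iΔmye tumors, or 0.57 to 1.24 FPKM. All 3 Tmem173iΔmye tumors lay below the others, and the log2 fold change was -0.51 (SE 0.35, adjusted p = 0.757 from edgeR). In the GENCODE M21 annotation, 1349 of the 1988 exonic bases of Tagln (67.9%) are also exonic in Gm48529 and Pcsk7 on the opposite strand, by far the highest share on the list ahead of Smtn with 16.3%. Gm48529 had 51 to 73 counts and Pcsk7 1033 to 1419 counts per tumor. Whether reads were counted by strand was not stated in the sources used here, and without strand the reads of these genes cannot be told apart, so the level of Tagln is uncertain.

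As grouped here, the filament network held Des, Synm, Synpo2, Flna, Flnc, Nexn and Hspb6, of which Synpo2 and Nexn also belong to Z-discs or dense bodies. It was the role group in which every tested gene had a log2 fold change below 0, a count that depends on this grouping. That was 7 of 7, against 50.6% of all genes tested, with a median of -0.62. Thin-filament genes had 6 of 7 below 0, with a median of -0.08. Des, the muscle intermediate filament, had 19.0, 14.9 and 19.5 FPKM in Tmem173fl/fl tumors (17.8 ± 2.53, SD, n = 3) and 6.61, 4.75 and 15.2 FPKM in Tmem173iΔmye tumors (8.84 ± 5.56, SD, n = 3). Tmem173iΔmye tumors 1 and 2 lay far below the rest, and tumor 3 lay inside the range of the Tmem173fl/fl tumors, so the groups overlapped. The log2 fold change of Des was -1.01 (SE 0.39, unadjusted p = 0.034 and adjusted p = 0.742 from edgeR). It was -0.84 without Tmem173iΔmye tumor 1, -0.71 without tumor 2 and -1.65 without tumor 3. It was -0.96 without Tmem173fl/fl tumor 1, -1.13 without tumor 2 and -0.94 without tumor 3. The threshold was no longer met without Tmem173iΔmye tumor 1 or 2 or without Tmem173fl/fl tumor 1 or 3. Against Acta2 in the same tumor, Des stood at 26.0%, 29.6% and 27.9% in Tmem173fl/fl and at 10.4%, 7.80% and 21.0% in Tmem173iΔmye tumors. These percentages did not overlap between the groups, but the share of all genes tested that would separate in this way was not computed.

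Synm (synemin), an intermediate filament protein that joins desmin, had 1.69, 1.79 and 1.40 FPKM in Tmem173fl/fl and 0.786, 0.843 and 1.52 FPKM in Tmem173iΔmye tumors, the same split of tumors as Des. Its log2 fold change was -0.63 (SE 0.29, unadjusted p = 0.065 from edgeR). Synpo2, an actin-bundling protein of the Z-disc and dense body, ranged from 0.652 FPKM in Tmem173iΔmye tumor 1 to 2.27 FPKM in Tmem173fl/fl tumor 3, and its log2 fold change was -0.69 (SE 0.37). The muscle filamin Flnc had 1.48, 1.57 and 2.21 FPKM in Tmem173fl/fl and 1.10, 1.18 and 1.40 FPKM in Tmem173iΔmye tumors. Its groups did not overlap, and the log2 fold change was -0.51 (SE 0.22, unadjusted p = 0.046 and adjusted p = 0.742 from edgeR).

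Flna, the filamin that most cell types use to cross-link actin, had 44.9, 59.5 and 54.5 FPKM in Tmem173fl/fl and 45.2, 45.1 and 42.0 FPKM in Tmem173iΔmye tumors. By CPM (counts scaled by library size, with TMM factors) every Tmem173iΔmye tumor lay below every Tmem173fl/fl tumor, whereas by FPKM Tmem173fl/fl tumor 1 lay among them. The log2 fold change of Flna was -0.26 (SE 0.15). Nexn (nexilin), which links actin to the Z-disc, and the small heat shock protein Hspb6, which relaxes smooth muscle when phosphorylated, had log2 fold changes of -0.62 (SE 0.30) and -0.30 (SE 0.29).

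**Figure D3:**
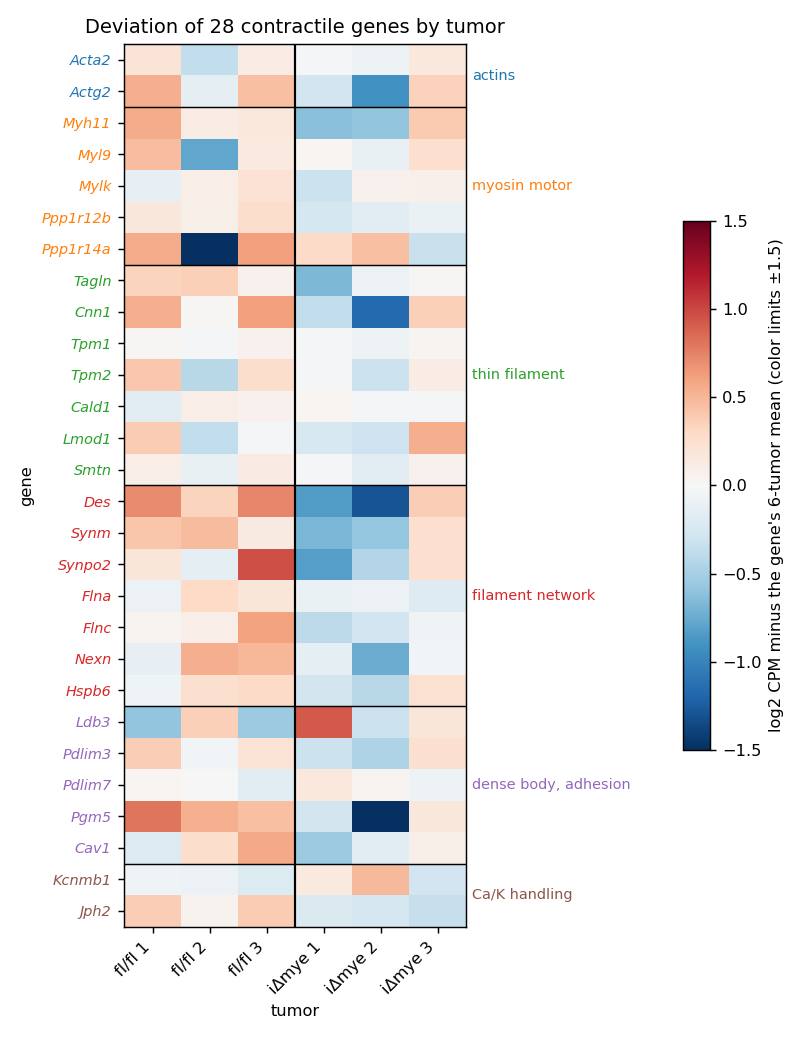
Deviation of log2 CPM from the 6-tumor mean of each gene (colour, limits ±1.5) for the 28 contractile genes tested (rows, by role) in the 3 Tmem173fl/fl (fl/fl) and 3 Tmem173iΔmye (iΔmye) tumors (columns). The columns of Tmem173iΔmye tumors 1 and 2 are mostly blue, with median deviations of -0.25 and -0.27, and that of tumor 3 is mostly pale red, with a median of 0.10.

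The proteins of dense bodies and adhesions held the gene with the lowest and the gene with the highest fold change of those tested. Pgm5 (aciculin), which sits at adherens-type junctions of muscle, had 90, 73 and 76 counts in Tmem173fl/fl and 43, 15 and 59 counts in Tmem173iΔmye tumors. These counts correspond to 1.60, 1.35 and 1.26 FPKM against 0.750, 0.260 and 1.03 FPKM, with no overlap between the groups. The log2 fold change was -1.04 (SE 0.47, unadjusted p = 0.058 and adjusted p = 0.742 from edgeR), and it was -0.65 without Tmem173iΔmye tumor 2, the lowest, and -1.47 without tumor 3.

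Ldb3 (cypher), a PDZ-LIM protein of the Z-disc, had 2.16, 4.29 and 2.27 FPKM in Tmem173fl/fl and 6.28, 2.63 and 3.74 FPKM in Tmem173iΔmye tumors. Its highest value was in Tmem173iΔmye tumor 1, where most contractile genes were low, and the log2 fold change of 0.54 (SE 0.38, with an adjusted p of 0.757 from edgeR) became 0.14 without that tumor. The relatives of Ldb3 on the list, Pdlim3 (ALP) and Pdlim7 (enigma), had log2 fold changes of -0.34 (SE 0.26) and 0.08 (SE 0.13). Pdlim7 stayed between 29.6 and 36.9 FPKM in all 6 tumors. Cav1, the scaffold of the caveolae that crowd the smooth muscle membrane, had a log2 fold change of -0.43 (SE 0.25), with 4.59, 6.46 and 7.93 FPKM in Tmem173fl/fl and 3.67, 4.74 and 5.70 FPKM in Tmem173iΔmye tumors. The integrin gene Itga8 had 5 to 25 counts per tumor, and its log2 fold change was 0.14 (SE 0.63) in a fit without the filter on low values.

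Among the genes of calcium and potassium handling, Jph2 (junctophilin), which ties the sarcoplasmic reticulum to the cell membrane, was the lower of those tested. It had 2.11, 1.71 and 2.14 FPKM in Tmem173fl/fl and 1.41, 1.37 and 1.28 FPKM in Tmem173iΔmye tumors. Here all 3 Tmem173iΔmye tumors were low, tumor 3 included, and the log2 fold change was -0.56 (SE 0.22, unadjusted p = 0.034 and adjusted p = 0.742 from edgeR). Kcnmb1 and Kcnma1 encode the beta and alpha subunits of the BK potassium channel. Kcnmb1 had a log2 fold change of 0.28 (SE 0.31) on 39 to 69 counts per tumor. Kcnma1, under the filter, had 138, 98 and 89 counts in Tmem173fl/fl and 76, 46 and 66 counts in Tmem173iΔmye tumors. The groups of Kcnma1 did not overlap, and in the fit of all 30939 genes with any count, its log2 fold change was -0.80 (SE 0.34, unadjusted p = 0.031 and adjusted p = 0.767 from edgeR), where 2.43% of genes were lower at an unadjusted p-value under 0.05.

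Casq2, a calcium store protein, the muscarinic receptors Chrm2 and Chrm3, and the regulator Myocd were also under the filter. They had 6 to 37 counts per tumor, and their log2 fold changes without the filter were -0.54 (SE 0.49), -1.04 (SE 0.56), -0.42 (SE 0.56) and -0.04 (SE 0.59). Chrm2, the most abundant muscarinic receptor of gut muscle, had 34, 9 and 32 counts in Tmem173fl/fl and 8, 11 and 17 counts in Tmem173iΔmye tumors, so 1 Tmem173fl/fl tumor lay among the Tmem173iΔmye tumors. Of the 6 genes under the filter, 5 had a log2 fold change below 0 and 0 had an adjusted p-value under 0.05 from edgeR.

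By CPM, 6 of the 28 tested genes had all Tmem173iΔmye tumors below all Tmem173fl/fl tumors (Ppp1r12b, Tagln, Flna, Flnc, Pgm5 and Jph2, 21.4%), against 6.47% of all genes tested. None had the opposite order, against 6.03% of all genes tested. Apart from Flna, these genes had mean levels of 1.79 FPKM or less. Des, Actg2, Cnn1 and Myh11, which are more abundant, overlapped through Tmem173iΔmye tumor 3.

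The tumors were then taken one at a time. The median deviation of the 28 genes from their 6-tumor means (log2 CPM) was 0.19, 0.07 and 0.21 in Tmem173fl/fl tumors 1, 2 and 3 and -0.25, -0.27 and 0.10 in Tmem173iΔmye tumors 1, 2 and 3. Over all genes tested the median stayed within 0.01 of 0 in every tumor. Tmem173iΔmye tumors 1 and 2 were the lowest of the 6 for 8 (28.6%) and 9 (32.1%) of the 28 genes, while tumor 3 was the lowest for 3 of them (10.7%). Over all genes tested, these tumors were the lowest for 23.5%, 9.62% and 8.83%, so tumors 1 and 3 were near their shares over all genes. The highest value was found in Tmem173fl/fl tumor 3 for 12 of 28 genes (42.9%), against 18.1% of all genes tested. Tmem173fl/fl tumor 2 was mixed, since its actins and Myl9 were low and its intermediate filament and cross-linker genes mostly high.

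The summed FPKM of the 34 genes was 436, 366 and 436 in Tmem173fl/fl and 364, 332 and 410 in Tmem173iΔmye tumors, which overlapped. The sum is dominated by a few genes, since the 5 highest in each tumor held 64.2% to 72.5% of it. Tpm1, Acta2 and Flna, with log2 fold changes of -0.03, 0.02 and -0.26, were among the 5 in every tumor. The role groups did not share 1 pattern either. For the filament network the median deviation was 0.04, 0.29 and 0.49 in Tmem173fl/fl and -0.40, -0.44 and 0.23 in Tmem173iΔmye tumors, a wider gap between tumors than in the thin-filament genes, where it ran from -0.17 to 0.33.

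The spread between tumors ranged widely over the list. The median SD of log2 CPM over the 6 tumors was 0.36, against 0.29 over all genes tested. Tpm1 had an SD of 0.052, at the 0.341 percentile of all genes tested, and Cald1, Pdlim7 and Smtn followed with 0.089, 0.11 and 0.12. At the other end, Pgm5 had an SD of 0.90 and Des of 0.86, at percentiles 94.0 and 93.0, followed by Ppp1r14a (0.85), Cnn1 (0.68), Synpo2 (0.62) and Ldb3 (0.59). The steady genes and the variable ones came from several roles each, and thin-filament genes were found at both ends.

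Within Tmem173fl/fl tumors the median SD of the 28 genes was 0.22, below the 0.28 of all genes tested, and within Tmem173iΔmye tumors it was 0.36, above the 0.22 of all genes tested. The SD was larger in Tmem173iΔmye tumors for 16 of 28 genes (57.1%), against 38.7% of all genes tested. With 3 tumors in each group this is a description, and it repeats the split of Tmem173iΔmye tumors 1 and 2 from tumor 3. For Des the SD was 0.23 within Tmem173fl/fl and 0.86 within Tmem173iΔmye tumors, whereas for Jph2 it was 0.19 and 0.067 and for Myl9 0.64 and 0.19.

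**Figure D4:**
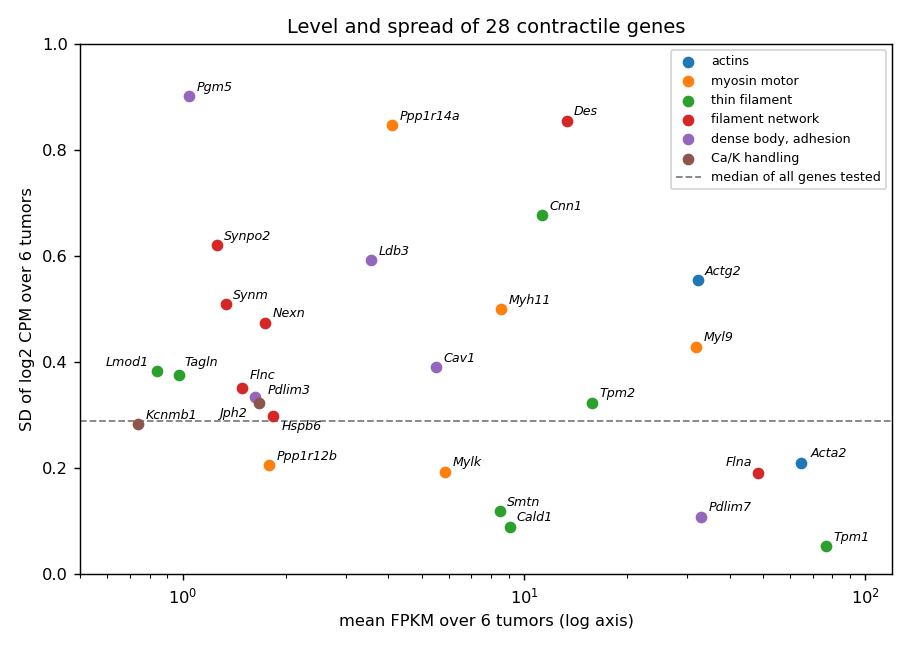
SD of log2 CPM over the 6 tumors (y axis) against mean FPKM (x axis, log scale) for the 28 contractile genes tested, coloured by role; the dashed line is the median SD of all 16426 genes tested, 0.29. High and steady genes such as Tpm1 (SD 0.052) sit at the lower right, and Pgm5, Des and Ppp1r14a lie at the top with SDs of 0.85 to 0.90.

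Other genes of the contractile pathway, a list of 68 regulators, receptors, channels and structural genes, were read from the same fit. Of 52 tested, 0 had an adjusted p-value under 0.05 from edgeR, 1 was lower by the threshold that Des met (Smtnl2) and 0 were higher, against 0.864% and 1.26% of all genes tested. In all, 32 of the 52 had a log2 fold change below 0, against 50.6% of all genes tested, and their median was -0.06. A difference between this list and the contractile genes was not tested. Smtnl2, a smoothelin relative, had 1.18, 1.23 and 2.06 FPKM in Tmem173fl/fl and 0.594, 0.836 and 0.797 FPKM in Tmem173iΔmye tumors. Its groups did not overlap, and its level was 0.499-fold that of Tmem173fl/fl tumors (SE of the log2 fold change 0.33, unadjusted p = 0.016 and adjusted p = 0.742 from edgeR). Others with low p-values were the dense body gene Pdlim5 (-0.34, SE 0.15), the SRF cofactor Mkl2 (-0.47, SE 0.22), the transcription factor Gata6 (-0.33, SE 0.15) and the actin-binding Svil (-0.29, SE 0.16), all log2 fold changes with unadjusted p-values of 0.058 to 0.115 from edgeR. Serum response factor itself, Srf, was level, with 18.2 to 23.4 FPKM and a log2 fold change of -0.00056 (SE 0.14).

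Marker lists of other cell types were read in the same tumors. The epithelial list (10 of 10 tested, led by Krt8, Epcam and Krt18) summed to 4441 to 5030 FPKM in Tmem173fl/fl and 4614 to 5645 FPKM in Tmem173iΔmye tumors. Its median deviation was 0.33, 0.08 and -0.05 in Tmem173iΔmye tumors 1, 2 and 3. The macrophage list (10 of 10, led by Lyz2, Cd14 and C1qa) summed to 399 to 624 FPKM in Tmem173fl/fl and 390 to 670 FPKM in Tmem173iΔmye tumors. Its median deviation was 0.39 and 0.25 in Tmem173iΔmye tumors 1 and 2, those with low contractile genes, and -0.29 in tumor 3. Both lists had the opposite sign to the contractile genes in each Tmem173iΔmye tumor, although the epithelial list was close to 0 in tumors 2 and 3. In Tmem173fl/fl tumors 1, 2 and 3 the epithelial list was at 0.19, -0.25 and -0.19 and the macrophage list at 0.03, -0.10 and -0.04. The contractile genes were at 0.19, 0.07 and 0.21 there, so the epithelial list was high with them in tumor 1. The part of these lists in the result was not tested.

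The fibroblast list (8 of 10 tested, led by Col1a1, Col3a1 and Dcn) was not low alongside the contractile genes. It had a median log2 fold change of 0.31, summing to 228 to 279 FPKM in Tmem173fl/fl and 252 to 349 FPKM in Tmem173iΔmye tumors, and the highest sum was that of Tmem173iΔmye tumor 2. Of its 8 tested genes, 1 (Dpt) was higher by the fold threshold, against 1.26% of all genes tested, and 1 had a log2 fold change below 0. The log2 fold change of Dpt was 1.08 (SE 0.20, unadjusted p = 0.00081 and adjusted p = 0.742 from edgeR). Pericytes share Acta2 and other contractile genes with muscle, and their list (6 of 8 tested, led by Rgs5, Pdgfrb and Kcnj8) had a median log2 fold change of 0.11 and summed to 22.3 to 28.3 FPKM in Tmem173fl/fl and 26.3 to 28.7 FPKM in Tmem173iΔmye tumors. This median had no stable sign, since it was -0.26 without Tmem173fl/fl tumor 2, -0.09 without Tmem173iΔmye tumor 1 and -0.04 without Tmem173fl/fl tumor 1. Its 6 tested genes differed too. The log2 fold change was 0.24 (SE 0.14) for Rgs5, 0.12 (SE 0.20) for Pdgfrb, 0.11 (SE 0.38) for Kcnj8 and 0.12 (SE 0.77) for Ndufa4l2. It was -0.65 (SE 0.20, unadjusted p = 0.014 from edgeR) for Notch3 and -0.33 (SE 0.24) for Abcc9. The list of interstitial cells of Cajal, the pacemakers that lie among the muscle layers (5 of 6 tested, led by Ano1, Gja1 and Kit), had a median of 0.14, which was -0.19 without Tmem173iΔmye tumor 3. Its median deviation was -0.23, 0.02 and 0.32 in Tmem173iΔmye tumors 1, 2 and 3. Ano1 had a mean of 34.6 FPKM, beside 5.49 for Gja1 and 2.32 for Kit. Which cells made these RNAs was not tested, so the list is no measure of Cajal cells. Endothelial genes (10 of 10 tested, led by Prox1, Cdh5 and Pecam1) had a median of 0.09, which was -0.0076 without Tmem173iΔmye tumor 1. Prox1 had a mean of 48.8 FPKM, beside 4.47 for Cdh5 and 4.26 for Pecam1, and which cells made it was not tested.

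Other lists could not be read as cell types, because few of their genes were tested and many of their markers were near 0. Mean levels were under 0.1 FPKM for 4 of 12 genes of the enteric neuron list, 5 of 8 of the enteric glia list (Sox10, S100b and Gfap among them), 3 of 6 of the mesothelium list (Upk3b, Wt1 and Lrrn4) and 5 of 8 of the adipocyte list (Adipoq, Plin1 and Lep at 0 in every tumor). The skeletal muscle list, which bears on Ldb3, Des and other genes that both kinds of muscle use, had Myh1 and Myh4 at 0 in every tumor. Its tested genes (3 of 10, Tnni2, Acta1 and Mylpf) had a median of 0.55, and its sum was 7.35 to 11.5 FPKM in Tmem173fl/fl and 13.0 to 14.3 FPKM in Tmem173iΔmye tumors. No gene of these marker lists had an adjusted p-value under 0.05 from edgeR.

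**Figure D5:**
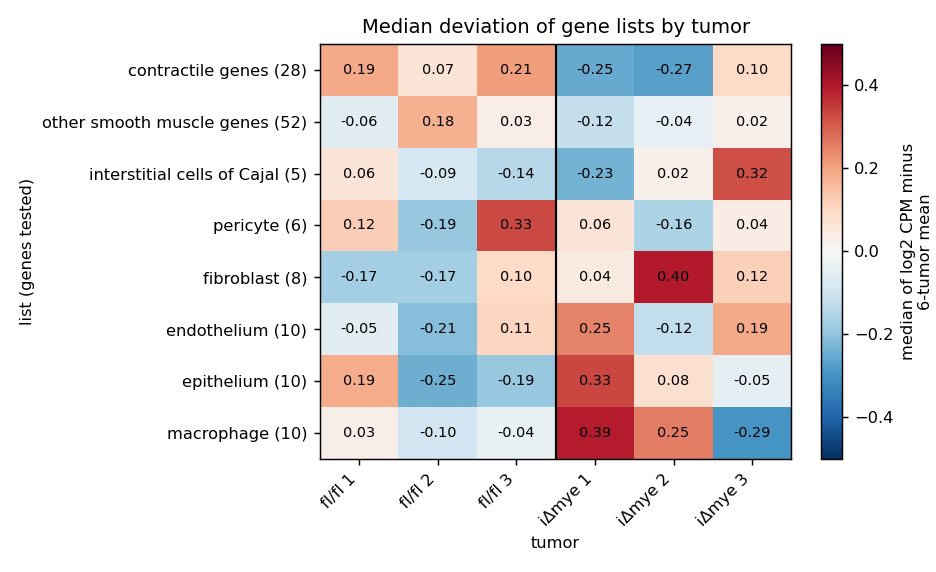
Median deviation of log2 CPM from the 6-tumor means (colour and printed value) of 8 gene lists (rows, number of genes tested in brackets) in each Tmem173fl/fl (fl/fl) and Tmem173iΔmye (iΔmye) tumor (columns). The contractile genes are at -0.25 and -0.27 in Tmem173iΔmye tumors 1 and 2, where the macrophage genes are at 0.39 and 0.25.

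Tmem173iΔmye tumors 1 and 2, with the low contractile genes, are also those of their group with Y-linked reads. Tmem173fl/fl tumor 1, the other tumor with such reads, had a median deviation of 0.19. Y-linked reads are split unequally over the groups, so their part and that of the group cannot be fully told apart, and the cause was not tested. With Y-linked reads as a covariate in edgeR, the median log2 fold change of the 28 genes was -0.23. That of Des was then -0.96 (SE 0.34, unadjusted p = 0.0255 from edgeR), which no longer reached the threshold of 1. No contractile gene met the fold threshold in that fit, against 0.536% of all genes tested on the lower side.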

How the data were processed

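Poly(A) RNA of 3 Tmem173fl/fl and 3 Tmem173iΔmye AOM+DSS-L tumors was sequenced. Per the labels' processing notes, the authors used CASAVA 1.8, fastp, HISAT2 2.0.5, featureCounts 1.5.0-p3 and DESeq2 1.20.0 with GRCm38 (mm10). The authors' deposited table gives each gene's raw counts and FPKM in every tumor. The deposited FPKM equal counts divided by gene length, by a median-of-ratios size factor and by the geometric mean of the totals (largest relative difference 4.96e-07). The strand setting of the counting was not stated in the sources used here. The table also holds fold changes and p-values of the authors' own comparison, which were not used.

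Counts of 16426 genes, those whose FPKM averaged 0.5 or more, were tested with edgeR 4.0.16 (R 4.3.3): TMM scaling, quasi-likelihood F test, no term besides the group, and p-values adjusted by Benjamini-Hochberg over every gene tested. The 6 members under the filter came from a fit of all 30939 genes with any count. Each SE was derived from the F statistic (size of the log2 fold change over the root of F). The fold threshold (log2 fold change of 1 or more either way, unadjusted p-value under 0.05) follows the study's methods. Log2 CPM used a prior count of 2. An exact permutation test of 3 against 3 tumors cannot go below 0.1, so none was used. Per tumor, 15329810 to 16533732 counts were available. Intervals cover 2 SE. The 3 tumors of a group differed by more than counting noise. The members and lists were chosen with earlier results of these data known. All 34 members were named by role, with up to 6 genes of lowest p-value of the other smooth muscle genes (1 of these is not reported here) and the up to 3 tested genes of highest mean FPKM of each marker list. Alternatives were DESeq2 1.42.0, limma 3.58.1 on log2(FPKM + 1) and log2(FPKM + 0.1), other filters and scalings, Y-linked reads as a covariate, a block for the replicate number, and each tumor left out in turn. The scripts were tested on simulated counts.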

Additional observations from a re-analysis of the deposited data

How the results depend on the processing

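The median log2 fold change of the 28 contractile genes stayed below 0 under every alternative run, from -0.45 without Tmem173iΔmye tumor 3 to -0.22 with limma on log2(FPKM + 1). It was -0.23 without Tmem173fl/fl tumor 3. No contractile gene reached an adjusted p-value under 0.05 in any of them. Over all genes, 27 had an adjusted p-value under 0.05 with DESeq2 and 6 in edgeR with no filter, against 0 with the filter, and 0 to 1 when a tumor was left out. The number past the fold threshold at an unadjusted p-value under 0.05, 349 over all genes tested, was 211 with Y-linked reads as a covariate, 136 with limma on log2(FPKM + 1), 872 with no filter and 218 to 636 when a tumor was left out. Of the contractile genes, 2 were lower by this threshold with DESeq2, with no filter and with the replicate block (Des and Pgm5, where 0.767%, 1.28% and 0.767% of all genes in those fits were), 0 with Y-linked reads as a covariate, and 0 to 4 when a tumor was left out. The cause was not tested. Of the 4 contractile genes with an unadjusted p-value under 0.05, Ppp1r12b, Flnc and Jph2 no longer had one with no filter, where Cnn1, Synm, Synpo2 and Pgm5 did. Ppp1r12b and Flnc lost it with Y-linked reads as a covariate and in both limma fits, Flnc without the 20 highest genes, and Ppp1r12b and Jph2 with the replicate block.

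Several genes near 0 changed sign. With Y-linked reads as a covariate, the log2 fold changes were -0.0038 for Myl9, -0.22 for Ppp1r14a, 0.035 for Cald1, -0.037 for Itga8 and 0.073 for Myocd. With library sizes taken as the sum without the 20 highest genes, they were -0.010 for Acta2, -0.0017 for Myl9 and -0.027 for Ppp1r14a. Cald1 was at 0.0020 and 0.0014 with limma at pseudocounts of 0.1 and 1, at 0.0082 with no filter and at 0.00040 with the replicate block. Leaving out a tumor gave -0.13 to 0.13 for Acta2, -0.25 to 0.31 for Myl9, -0.42 to 0.33 for Ppp1r14a, -0.079 to 0.045 for Cald1, -0.31 to 0.25 for Lmod1, -0.58 to 0.64 for Itga8, -0.67 to 0.044 for Chrm3 and -0.45 to 0.44 for Myocd.

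Same-numbered tumors share only a number. The correlations of their deviations across genes were 0.27, 0.00022 and 0.14 for numbers 1, 2 and 3. With the replicate block, 0 genes had an adjusted p-value under 0.05, 377 passed the fold threshold (251 higher and 126 lower), and 7 contractile genes were lower at an unadjusted p-value under 0.05 (Actg2, Cnn1, Des, Synpo2, Flnc, Pgm5 and Cav1, against 3.79% of all genes tested). At this depth, genes with under 100 counts per tumor, such as Tagln, Pgm5, Itga8, Chrm2 and Myocd, have wide errors, and intervals cover the spread of 3 tumors per group.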
